A study of Mus musculus with 12 samples.

Results

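Parathyroid hormone-like hormone (Pthlh) and the receptor it acts on (Pth1r) were followed through whole fetal mouse lungs that were wild type (WT) or carried a conditional knockout (CKO) of Tgfbr2. Both genes were found by their gene name in the count table, as 2 of 47069 genes. The pair was chosen by the measured log2 fold change of Pthlh in this same comparison, where its RNA was much lower in the CKO lungs. The levels and fold changes of both genes are therefore descriptions and carry no test.

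Pthlh encodes PTHrP, a secreted peptide that acts on cells close to its source. Its receptor PTH1R is a G protein-coupled receptor that signals through adenylyl cyclase, cyclic AMP and protein kinase A, and also through phospholipase C. In the fetal lung the peptide is known as an epithelial signal to mesenchyme that carries the receptor, and in cartilage it forms a feedback loop with Indian hedgehog.

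RNA was sequenced from lungs of embryonic day 15.5 (E15.5), strain C57BL/6, with 3 lungs in each group. The CKO lungs carry floxed Tgfbr2, the gene of a receptor that TGF-beta, transforming growth factor beta, needs to signal. The labels write their genotype as Tgfbr2lox/flox/Tbx4-rtTA/Teto-Cre in replicates 1 and 2 and as Tgfbr2flox/flox/Tbx4-rtTA/Teto-Cre in replicate 3. The protocol given for every sample, WT included, has doxycycline from E6.5 in the food and at 1 mg/ml in the water. Tbx4-driven Cre acts in lung mesenchyme, so whole lung also contains epithelium and blood vessel cells outside its target. In whole tissue, fewer cells of a type and less RNA per cell cannot be told apart. The labels do not say whether lungs shared a litter, so the spread behind each p-value is that of these 6 lungs and may not be that of separate litters.

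Gene counts summed to between 31983717 and 51572845 per lung. Tgfbr2 itself was at 199.7, 203 and 230 CPM (counts scaled to a common library size) in the WT lungs against 213, 221 and 239 CPM in the CKO lungs, a log2 fold change of 0.09 ± 0.07 (SE) with an edgeR adjusted p of 0.453. The count over the whole gene thus showed no loss and does not check the labels. The lung markers Nkx2-1, Sftpc and Tbx4 were all above 220 CPM in every lung. CKO replicate 1 stood between the groups, at -2.41 on a first principal component where the WT lungs lay between -34.4 and -28.1 and the other CKO lungs at 45.3 and 50.8. Replicate 1 of each group was female by Xist, with 61807 and 100817 counts against at most 41 in the other lungs. The share of uniquely mapped reads that fell in no gene ran from 14.5% to 16.1% in WT and was 17.0%, 11.8% and 12.8% in CKO replicates 1 to 3, and its part in the results was not tested.

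Pthlh lies at chr6:147252101-147264183 on the minus strand (GRCm38, ENSMUSG00000048776), and no annotated gene overlaps it. Its transcript was counted 212, 320 and 307 times in WT replicates 1 to 3 and 80, 28 and 30 times in CKO replicates 1 to 3. Scaled to library size these are 6.78, 6.23 and 6.77 CPM in the WT lungs against 1.99, 0.756 and 0.712 CPM in the CKO lungs. The groups did not overlap, which was also the case for 29.9% of all genes tested. The 3 WT lungs were close together, whereas CKO replicate 1 held 2.71 times the mean level of the other CKO lungs.

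The WT mean was 6.59 ± 0.316 CPM and the CKO mean 1.15 ± 0.727 CPM (SD, n = 3), a log2 fold change of -2.51 ± 0.36 (SE). Without CKO replicate 1 the log2 fold change was -3.15, a fold more than 1.5 times larger. As a share of the WT mean, Pthlh RNA was at 30.2%, 11.5% and 10.8% in CKO replicates 1 to 3. The exact Poisson 95% intervals, which cover counting error alone, ran from 1.58 to 2.48 CPM in CKO replicate 1, from 0.502 to 1.09 CPM in replicate 2 and from 0.481 to 1.02 CPM in replicate 3. The lowest bound in any WT lung was 5.57 CPM, above all of these, and the interval of CKO replicate 1 did not meet those of the other CKO lungs.

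Both sequencing runs put Pthlh higher in every WT lung than in any CKO lung, with the CKO lungs in the same order. In the run of 17Feb16 the WT lungs had 6.87, 6.25 and 5.88 CPM, with 1.60, 0.760 and 0.755 CPM in the CKO lungs. In the run of 18Feb16 they had 6.72, 6.23 and 7.03 CPM against 2.13, 0.761 and 0.699 CPM. CKO replicate 1 was the highest CKO lung in both runs, whereas the order of the WT lungs differed between the runs.

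Among 17843 genes tested, Pthlh ranked 38 from the most negative log2 fold change, and 99.6% had a change no larger in either direction. The intermediate level in CKO replicate 1 was not a feature of Pthlh alone. On the log2 CPM scale its shift from WT was 55.2% of the mean shift in the other CKO lungs. Over the 1554 other called genes the median of the same measure was 66.1% (quartiles 51.9% and 81.7%). Those genes were called on these same lungs, and a CKO replicate 1 near WT makes a call harder. Their median is therefore not an unselected reference for Pthlh. The labelled genotype did not separate CKO replicate 1 from replicate 2. WT replicate 1, female like CKO replicate 1, had 6.78 CPM of Pthlh, beside 6.23 and 6.77 CPM in the other WT lungs. Replicate 1 was the only female lung of each group, so sex and lung cannot be told apart. No reason for the level in CKO replicate 1 was tested.

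**Figure D1:**
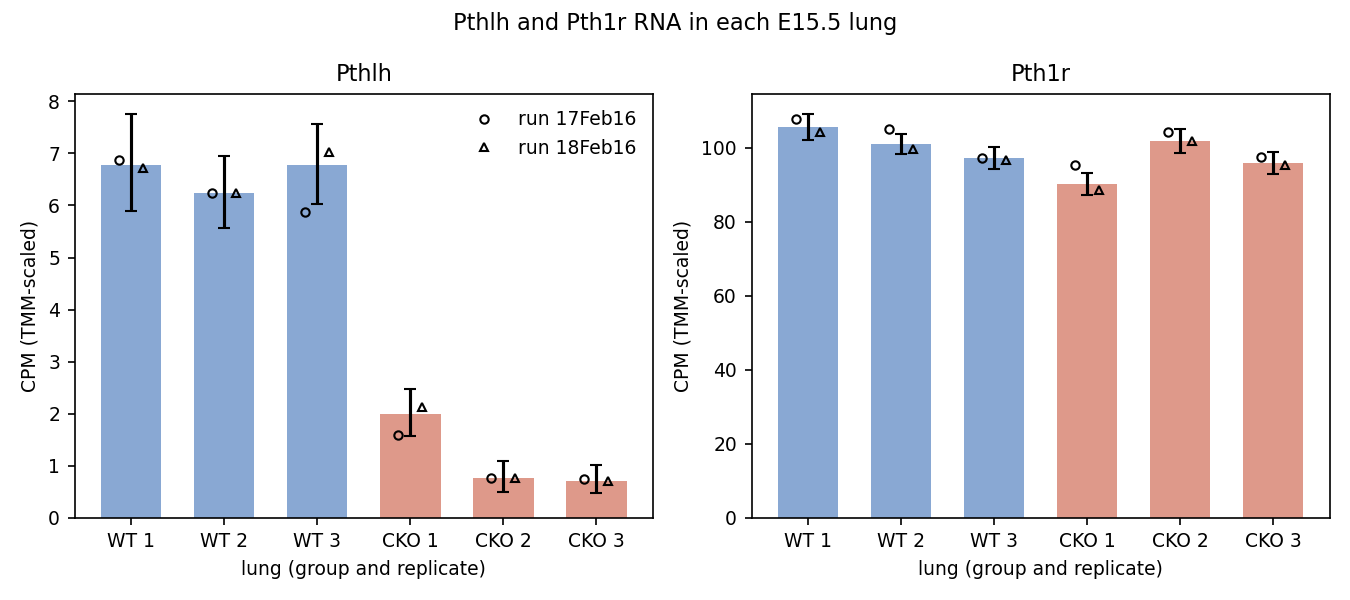
Pthlh (left) and Pth1r (right) in CPM, with 1 bar per lung, exact Poisson 95% intervals as error bars, and circles and triangles for each of the runs. Pthlh lies between 6.23 and 6.78 CPM in the WT lungs and between 0.712 and 1.99 CPM in the CKO lungs, whereas the Pth1r bars of the groups overlap.

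Pth1r lies at chr9:110722085-110747145 on the minus strand (ENSMUSG00000032492). The receptor transcript was counted 3299, 5188 and 4410 times in the WT lungs against 3625, 3771 and 4035 times in the CKO lungs, or 105.6, 101 and 97.2 CPM against 90.3, 101.8 and 95.8 CPM. The groups overlapped, with CKO replicate 2 above 2 of the WT lungs. Their means were 101.3 ± 4.17 and 95.97 ± 5.77 CPM (SD, n = 3), and the log2 fold change was -0.08 ± 0.06 (SE). Of all genes tested, 32.0% had a change no larger than this. Leaving out each lung in turn moved it between -0.12 and -0.02. Myl3, the gene of a myosin light chain, overlaps Pth1r on the other strand and had 110 counts over all 6 lungs.

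Per kilobase of merged exons, Pthlh was at 4.07 ± 0.195 CPM per kb in WT lungs and 0.713 ± 0.449 CPM per kb in CKO lungs. Pth1r was at 34.6 ± 1.43 and 32.8 ± 1.97 CPM per kb (SD, n = 3). Ranked by this measure among 17771 genes, Pthlh stood at percentile 48.6 in WT and 23.5 in CKO, and Pth1r at 92.2 and 91.7. The receptor RNA thus exceeded the ligand RNA in every lung. The ratio of Pth1r to Pthlh per kb was 8.61, 8.97 and 7.95 in the WT lungs against 25.1, 74.6 and 74.5 in the CKO lungs, with CKO replicate 1 the nearest to WT.

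The authors' deposited table of the same contrast gives log2 fold changes of -2.54 for Pthlh and -0.08 for Pth1r.

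The other ligands and the other receptor of the family were at or close to 0. Pth, the circulating parathyroid hormone, and Pth2, a ligand of the receptor Pth2r, had 0 counts in all 6 lungs, which allows up to 3 counts or 0.0121 CPM over the lungs together. Pth2r had 13 counts in total. None of these genes passed the filter on low counts. Pthlh and Pth1r were therefore the only ligand and receptor of the family with more than 13 counts in these lungs.

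Sequence upstream of annotated start sites is shown for the ligand, whose RNA differed between the groups, and for the receptor, whose RNA overlapped. It is taken from the RefSeq promoter table (GRCm38.p6). Each window was cut back to the bases before the outermost exon of the gene within that window, and is written 5′ to 3′ on the strand of the gene, from chr6:147264184-147264263 for Pthlh and from chr9:110747146-110747395 and chr9:110742720-110742860 for the outer and inner of the Pth1r start sites. The inner stretch lies within Pth1r, between its exons, and within the span of Myl3 but in no exon of it. Capitals mark CAGAC, the SMAD box, and GGGCGG, the GC box, on either strand.
Pthlh: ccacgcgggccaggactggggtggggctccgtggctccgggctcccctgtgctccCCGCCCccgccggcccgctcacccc
Pth1r outer start: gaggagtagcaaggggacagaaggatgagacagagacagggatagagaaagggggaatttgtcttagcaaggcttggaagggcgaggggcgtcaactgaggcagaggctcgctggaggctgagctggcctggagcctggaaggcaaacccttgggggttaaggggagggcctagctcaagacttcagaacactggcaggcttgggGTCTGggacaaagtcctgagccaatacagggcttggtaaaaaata
Pth1r inner start: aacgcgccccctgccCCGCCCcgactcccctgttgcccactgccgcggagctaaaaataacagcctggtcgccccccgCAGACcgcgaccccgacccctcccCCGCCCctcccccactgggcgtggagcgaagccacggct

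The Pthlh stretch of 80 bases was 82.5% G and C, with 1 GC box and 0 SMAD boxes. The outer Pth1r stretch of 250 bases was 56% G and C with 1 SMAD box, and the inner stretch of 141 bases was 73.8% with 1 SMAD box and 2 GC boxes. A middle Pth1r stretch, chr9:110743687-110743936, is not printed. Its 250 bases were 65.6% G and C with 0 SMAD boxes and 1 GC box, so not every Pth1r stretch held a SMAD box. Over the full RefSeq window of 300 bases, 250 before and 50 after the start, Pthlh was 74% G and C against a median of 52.7% over 32851 promoters, and held 4 GC boxes and 0 SMAD boxes. In all promoters of that length, 35.7% hold a GC box and 49.6% a SMAD box. The cyclic AMP response element TGACGTCA, held by 1.79% of promoters, and the GLI motif GACCACCCA, held by 0.253%, had 0 matches in the Pthlh window and in the 3 Pth1r windows. A match or its absence describes letters in these windows only.

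The rest of the pathway was read from 9 lists with 129 genes between them beside Pthlh and Pth1r. Of these, 119 passed the filter on low counts, and none of the 3 from the PTH family did. In edgeR's quasi-likelihood test with Benjamini-Hochberg adjustment over all genes, 16 of these 119 rose in the CKO lungs (13.4%) and 10 fell (8.4%). Over all 17843 genes tested, 5.64% rose and 3.08% fell, 8.71% in either direction. The median log2 fold change of the 119 was 0.02, with 64 genes above 0 and 55 below 0, and the median of all genes tested was -0.0046. Of the 26 called, 3 were called whichever lung was left out, Pcsk1, Tnfrsf11b and Tcf21. Leaving out WT replicate 1 kept 6 of the 26, WT replicate 2 kept 5, CKO replicate 2 kept 6 and CKO replicate 3 kept 12.

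**Figure D2:**
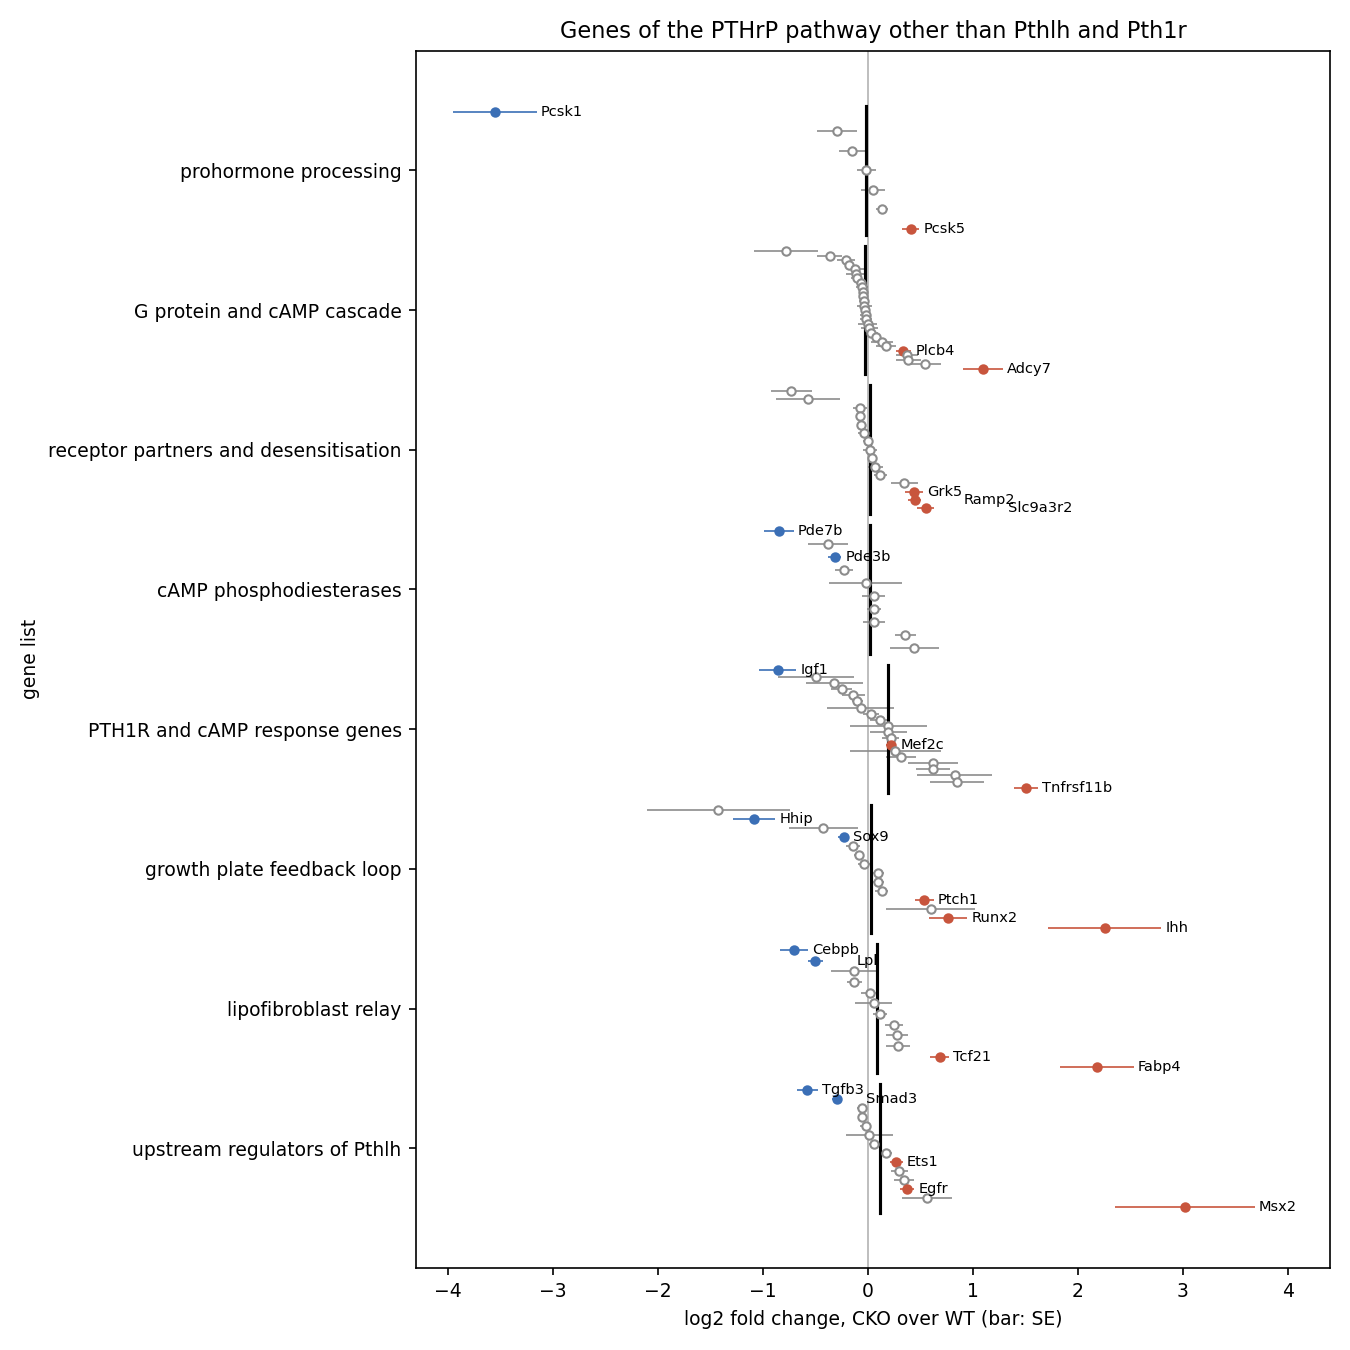
Log2 fold change of CKO over WT for each tested gene of 8 pathway lists, with SE bars. Filled red points rose, filled blue points fell, open grey points did not pass the test, and the black line is the median of the list. Pcsk1 at -3.55 and Msx2 at 3.02 lie farthest from 0, and most genes of every list are open points around 0.

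The enzymes that cut prohormones such as PTHrP were split. Pcsk1, a prohormone convertase of endocrine cells, was at 1.06, 0.876 and 1.41 CPM in WT lungs against 0.149, 0.0540 and 0.0712 CPM in CKO lungs and fell, with a log2 fold change of -3.55 ± 0.40 (SE, adjusted p = 0.00438). It is also a marker of neuroendocrine cells, which are described with the other markers further on. Pcsk5, a convertase of wider expression, rose from 51.2, 51.3 and 59.3 CPM to 65.6, 71.7 and 77.6 CPM (log2 0.41 ± 0.08, adjusted p = 0.0260). The other 5 of 7 tested enzymes did not pass. Furin, the general convertase, was at 94.4 ± 8.88 CPM in WT lungs against 93.6 ± 9.33 CPM in CKO lungs (SD, n = 3, adjusted p = 0.951). Without WT replicate 3, 2 of these enzymes rose. The Pcsk5 call ended without any 1 of 4 lungs (WT replicates 1 and 2, CKO replicates 2 and 3).

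Of 27 tested genes of the G protein and cyclic AMP cascade, 2 rose and 0 fell. That is 7.41% called, near the 8.71% called in either direction over all genes tested. Adcy7, an adenylyl cyclase, was at 36.0, 40.9 and 48.8 CPM in WT lungs and 65.03, 95.01 and 109.4 CPM in CKO lungs (log2 1.10 ± 0.19, adjusted p = 0.0162). Plcb4, a phospholipase C, was at 32.0, 30.6 and 33.7 CPM against 37.0, 42.1 and 42.7 CPM (log2 0.34 ± 0.07, adjusted p = 0.0331). Gnas, which encodes the stimulatory G protein subunit that PTH1R uses, had a log2 fold change of 0.14 ± 0.10 and did not pass (adjusted p = 0.454). Prkar2a, a regulatory subunit of protein kinase A, came next to the threshold with a log2 fold change of -0.18 ± 0.04 (adjusted p = 0.0522). Without any 1 of 3 lungs (WT replicates 1 and 2, CKO replicate 2) the list held 0 called genes, and without CKO replicate 3 only Adcy7 was called. Without CKO replicate 1 it held 4, and without WT replicate 3 it held 4 that rose and 1 that fell.

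Among 15 tested receptor partners and desensitising proteins, 3 rose and 0 fell. Ramp2, an accessory protein of receptors in this class, was at 85.3, 84.9 and 88.7 CPM in WT lungs against 106.1, 124.3 and 122.2 CPM in CKO lungs (log2 0.45 ± 0.06, adjusted p = 0.00895). Slc9a3r2, a PDZ scaffold that binds PTH1R, was at 58.2, 53.7 and 66.2 CPM against 81.9, 87.4 and 91.6 CPM (log2 0.55 ± 0.08, adjusted p = 0.0103). Grk5, a receptor kinase that shares bases with Zfp950, was at 29.0, 26.6 and 32.5 CPM against 37.6, 41.0 and 40.9 CPM (log2 0.44 ± 0.08, adjusted p = 0.0212). A single gene was called without any 1 of 3 lungs (WT replicates 1 and 2, CKO replicate 2), and 2 without CKO replicate 3. Endothelial markers were also higher in the CKO lungs, at 119% to 135% of the WT mean, and their part in the Ramp2 result was not tested.

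The phosphodiesterases, which break down cyclic AMP, had 0 that rose and 2 that fell among 10 tested. Pde7b was at 9.41, 8.49 and 10.3 CPM in WT lungs and 6.18, 4.48 and 5.01 CPM in CKO lungs (log2 -0.85 ± 0.14, adjusted p = 0.0159). Pde3b was at 52.7, 50.5 and 47.3 CPM against 42.1, 39.7 and 39.1 CPM (log2 -0.32 ± 0.06, adjusted p = 0.0228). Neither was called without any 1 of 4 lungs (WT replicates 1 and 2, CKO replicates 2 and 3), and without CKO replicate 1 the list held 3 that fell and 1 that rose. The Pde3b call also ended in the run of 17Feb16 alone (adjusted p = 0.0630).

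Of 20 tested genes known in bone or other cells to respond to PTH1R or cyclic AMP, 2 were higher and 1 lower. This was 15.0% called, against 8.71% over all genes tested. Their median log2 fold change was 0.20. The list records no direction of response for its genes, so the median does not measure activity of the pathway. Tnfrsf11b, which encodes the decoy receptor osteoprotegerin, was at 2.72, 2.63 and 2.45 CPM in WT lungs and 7.42, 7.75 and 6.98 CPM in CKO lungs. Its log2 fold change was 1.51 ± 0.12 (adjusted p = 0.00129), CKO replicate 1 was level with the other CKO lungs, and its adjusted p was at most 0.0158 with any lung left out. Igf1, an insulin-like growth factor, fell from 191.1, 187.7 and 185.5 CPM to 132.6, 74.1 and 104.4 CPM (log2 -0.86 ± 0.18, adjusted p = 0.0264). Mef2c, a transcription factor, rose from 67.9, 66.8 and 71.7 CPM to 81.4, 80.9 and 78.6 CPM (log2 0.22 ± 0.05, adjusted p = 0.0306). Igfbp5, an IGF-binding protein, missed the threshold at a log2 fold change of 0.62 ± 0.16 (adjusted p = 0.0543). Without WT replicate 1 or WT replicate 2 only Tnfrsf11b was called, without CKO replicate 2 Mef2c was lost and without CKO replicate 3 both Igf1 and Mef2c. Without CKO replicate 1 and without WT replicate 3 more passed, with 6 and 5 that rose. Mef2c was not called in the run of 17Feb16 alone (adjusted p = 0.114), and Igfbp5 was called there (adjusted p = 0.0355) and in the other run alone (adjusted p = 0.0477).

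In the list of the growth plate feedback loop between hedgehog and PTHrP, 3 of 14 tested genes rose and 2 fell. This was 35.7% called, against 8.71% over all genes tested. Ptch1, the hedgehog receptor and itself a target of the pathway, was at 330.1, 346.3 and 338.6 CPM in WT lungs and 427, 508.8 and 539.1 CPM in CKO lungs (log2 0.54 ± 0.09, adjusted p = 0.0142). Hhip, a hedgehog-binding inhibitor that is also a known target, moved the other way, from 74.3, 85.0 and 96.7 CPM to 55.0, 34.2 and 31.6 CPM (log2 -1.08 ± 0.20, adjusted p = 0.0206). The known hedgehog targets in the list thus did not share a direction.

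Ihh, Indian hedgehog, was rare, at 0.256, 0.117 and 0.154 CPM in WT lungs and 0.324, 1.03 and 1.09 CPM in CKO lungs, and rose (log2 2.26 ± 0.54, adjusted p = 0.0419). Runx2, a transcription factor of bone and cartilage that shares bases with Supt3, rose from 3.17, 2.76 and 2.84 CPM to 3.84, 5.13 and 5.91 CPM (log2 0.76 ± 0.18, adjusted p = 0.0405). Sox9, a transcription factor of cartilage and of distal lung epithelium, fell from 80.7, 82.1 and 88.0 CPM to 72.2, 72.4 and 69.5 CPM (log2 -0.23 ± 0.05, adjusted p = 0.0333). Without any 1 of 3 lungs (WT replicates 1 and 2, CKO replicate 2) the list held 0 called genes, without CKO replicate 3 it held 1 that rose, and without WT replicate 3 it held 1 that rose and 2 that fell. The Sox9 call ended in the run of 17Feb16 alone (adjusted p = 0.171) and under total count scaling (adjusted p = 0.0557), and the Runx2 call in the run of 18Feb16 alone (adjusted p = 0.0561). Cartilage markers summed to 94.1%, 75.04% and 61.5% of the WT mean in CKO replicates 1 to 3. That sum includes Sox9 and another gene of this list, so it is not separate from them. The part of cartilage in these results was not tested.

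The lipofibroblast list follows the fat-storing mesenchymal cells on which PTHrP is known to act in rodent lung. Of its 12 tested genes, 2 rose and 2 fell, or 33.3% called against 8.71% over all genes tested. Tcf21, a transcription factor of lung mesenchyme, was at 137.2, 120.8 and 138.5 CPM in WT lungs and 183.8, 224.6 and 228 CPM in CKO lungs (log2 0.68 ± 0.09, adjusted p = 0.00703, at most 0.0416 with any lung left out). Fabp4, a fatty acid-binding protein also made by endothelium and macrophages, rose from 1.34, 0.506 and 0.617 CPM to 4.21, 2.92 and 3.70 CPM (log2 2.18 ± 0.35, adjusted p = 0.0132). Endothelial and leukocyte markers were higher in the CKO lungs too, and their part in the Fabp4 value was not tested.

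Lpl, lipoprotein lipase, fell from 52.4, 52.2 and 47.6 CPM to 38.5, 35.9 and 33.2 CPM (log2 -0.50 ± 0.07, adjusted p = 0.00892). Cebpb, a transcription factor of adipogenesis whose locus overlaps Tmem189, fell from 53.1, 43.9 and 60.3 CPM to 35.9, 33.3 and 27.5 CPM (log2 -0.70 ± 0.13, adjusted p = 0.0219). The best known markers of the cell, Plin2, a lipid droplet coat protein, and Pparg, a nuclear receptor of adipogenesis, did not pass, with log2 fold changes of 0.28 ± 0.10 (adjusted p = 0.141) and -0.13 ± 0.22 (adjusted p = 0.768). Fabp4 was not called without WT replicate 2, Lpl without WT replicate 2 or CKO replicate 2, and Cebpb without WT replicate 1, CKO replicate 2 or CKO replicate 3. Without CKO replicate 1, 4 genes rose, among them Plin2 (log2 0.41, adjusted p = 0.00456). Plin2 was also called with replicates 2 and 3 only (log2 0.40, adjusted p = 0.0129).

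Genes known in some tissue to regulate Pthlh transcription included 14 that were tested, of which 3 rose and 2 fell. This was 35.7% called, against 8.71% over all genes tested. Smad3, a transducer of TGF-beta signals, was at 108.4, 111.2 and 109.8 CPM in WT lungs and 93.4, 91.5 and 84.2 CPM in CKO lungs (log2 -0.29 ± 0.05, adjusted p = 0.0157). Tgfb3, a TGF-beta ligand whose locus overlaps Ttll5, fell from 78.2, 80.5 and 72.3 CPM to 59.9, 48.8 and 46.2 CPM (log2 -0.58 ± 0.10, adjusted p = 0.0159). The other 3 called genes of the list moved the other way.

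Egfr, the epidermal growth factor receptor, rose from 43.2, 44.7 and 39.2 CPM to 57.5, 55.3 and 51.7 CPM (log2 0.37 ± 0.07, adjusted p = 0.0203). Msx2, a homeobox factor, was at 0.896, 0.370 and 0.397 CPM in WT lungs and 1.10, 5.32 and 6.58 CPM in CKO lungs, with CKO replicate 1 far below the other CKO lungs (log2 3.02 ± 0.66, adjusted p = 0.0333). Ets1, a transcription factor abundant in endothelium, rose with a log2 fold change of 0.27 ± 0.06 (adjusted p = 0.0395). Without any 1 of 3 lungs (WT replicates 1 and 2, CKO replicate 2) the list held 0 called genes, and without CKO replicate 3 it held 1 that rose and 2 that fell. Without CKO replicate 1 it held 5 that rose.

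Genes near Pthlh on the chromosome did not share its difference. Of 15 tested protein-coding genes whose start lies within 1 Mb, 1 rose and 0 fell, and their median log2 fold change was 0.01. Over all genes tested, 8.71% were called in either direction. The riser was Mansc4, a membrane protein gene at chr6:147075060-147087032, which went from 3.38 ± 0.430 to 9.52 ± 3.36 CPM (SD, n = 3), opposite in direction to Pthlh (log2 1.49 ± 0.26, adjusted p = 0.0177). Its call ended without any 1 of 3 lungs (WT replicates 1 and 2, CKO replicate 2). Klhl42, a ubiquitin ligase adaptor gene and one of the nearest on that side, had 47.3 ± 1.92 CPM in WT lungs against 48.4 ± 1.20 CPM in CKO lungs (adjusted p = 0.751).

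Around Pth1r, 30 tested protein-coding genes had a median log2 fold change of 0.01, with 1 that rose and 1 that fell. The share called over all genes tested was 8.71%. Tmie, a gene of hair cell mechanotransduction whose locus overlaps Als2cl, went from 0.887 ± 0.242 to 1.91 ± 0.255 CPM (SD, n = 3; log2 1.09 ± 0.24, adjusted p = 0.0344). Cdc25a, a cell cycle phosphatase, went from 103.5 ± 2.05 to 91.8 ± 1.91 CPM (log2 -0.17 ± 0.04, adjusted p = 0.0403). In the run of 17Feb16 alone Tmie had a log2 fold change of 0.27 (adjusted p = 0.684) and Cdc25a lost its call too (adjusted p = 0.188). The Tmie call ended without any 1 of 4 lungs (WT replicates 1 and 2, CKO replicates 2 and 3), and the Cdc25a call held only where the lung left out was WT replicate 3. Tgfbr2 lies on the same chromosome 5.34 Mb from Pth1r.

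**Figure D3:**
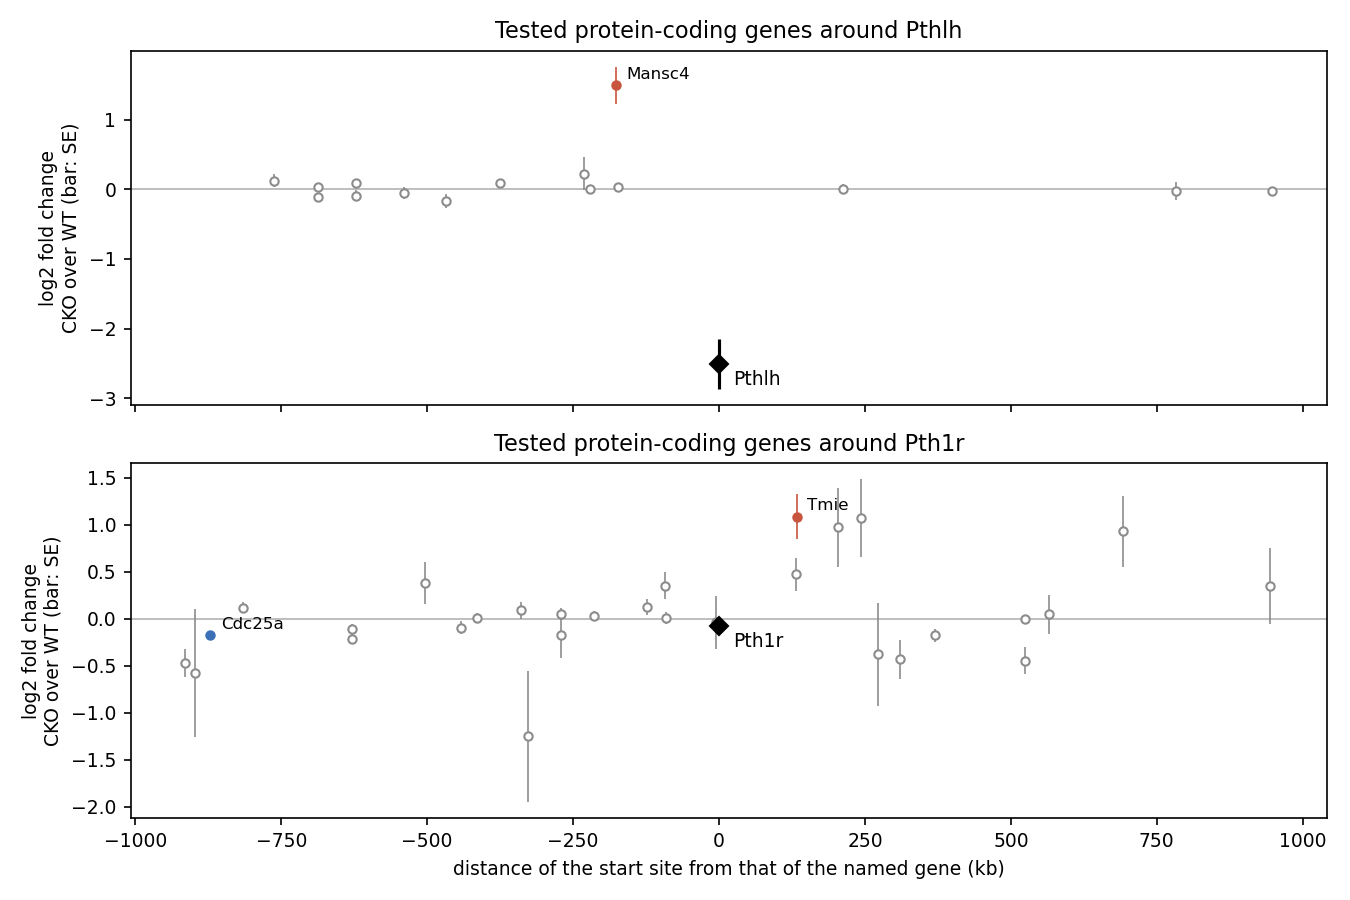
Log2 fold change (CKO over WT, SE bars) of tested protein-coding genes within 1 Mb of Pthlh (top) and Pth1r (bottom), against the distance between start sites in kb. Black diamonds are Pthlh and Pth1r, filled red and blue points rose or fell, and open points did not pass. Pthlh at -2.51 stands below its neighbours, while Pth1r at -0.08 lies among them.

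The genes whose profile over the 6 lungs was most like that of Pthlh were found by the root-mean-square distance between log2 CPM profiles centred on their own means, among the 13255 genes that averaged 1 CPM or more. The nearest was Lgr5, a receptor for R-spondins, at a distance of 0.210 on the log2 scale. Lgr5 was at 5.28, 4.50 and 4.56 CPM in WT lungs and 2.14, 0.594 and 0.594 CPM in CKO lungs, close to the Pthlh levels themselves. Ret, the receptor tyrosine kinase for GDNF family ligands, followed at 0.239, with 7.91, 9.60 and 7.21 CPM against 3.24, 1.19 and 0.831 CPM.

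Smoc2, a secreted matrix protein, had a distance of 0.286 and 59.5, 67.8 and 52.9 CPM against 28.8, 8.75 and 9.14 CPM. Arhgef38, a guanine nucleotide exchange factor, had a distance of 0.290, and Tbx1, a T-box transcription factor, one of 0.323 with 17.3, 17.3 and 15.8 CPM against 8.74, 2.59 and 2.92 CPM. In each of the 4 genes with values given, CKO replicate 1 lay between the WT lungs and the other CKO lungs. The genes were picked for likeness to Pthlh over these same lungs. The place of CKO replicate 1 therefore follows from the choice and is no separate result. Only 2 genes were within 0.25 of Pthlh, and the median distance of all genes compared was 1.39. These profiles share the libraries and the split between groups, so a small distance includes any change common to the CKO lungs.

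For Pth1r the same measure separated little, since 10570 of the 13255 genes lay within 0.25 and the median distance was 0.126. The nearest were Cstb, a cysteine protease inhibitor, at 0.0101, Ctbp1, a transcriptional corepressor, at 0.0165, Idh1, an isocitrate dehydrogenase, at 0.0192, Elp6, an Elongator subunit, at 0.0199 and Mettl10, a methyltransferase gene that overlaps Fgfr2, at 0.0204. Pth1r thus had the flat profile of most genes.

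**Figure D4:**
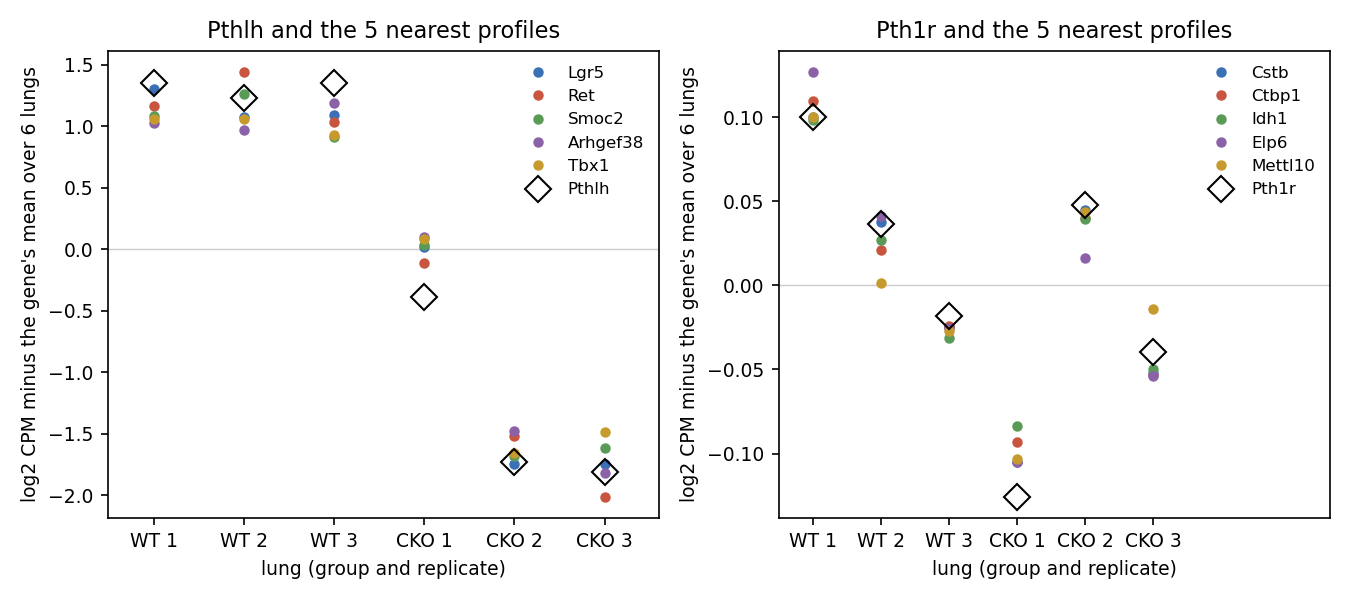
Log2 CPM minus the mean of the gene over 6 lungs, for Pthlh with its 5 nearest profiles (left) and Pth1r with its own (right), by lung. The vertical scale of the right panel covers a range much smaller than that of the left. Pthlh and the genes beside it step down in CKO replicate 1 and again in CKO replicates 2 and 3, whereas Pth1r moves little. The genes beside each were picked for this likeness.

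Markers of cell types that could hold the ligand or the receptor were summed per lung. Over all genes tested, 5.64% rose and 3.08% fell. These shares stand beside the counts of called markers in every list that follows. The 6 general epithelial markers summed to 95.2%, 89.3% and 85.3% of the WT mean in CKO replicates 1 to 3, and 2 of 6 fell. The 8 distal epithelial markers summed to 81.6%, 81.4% and 63.3%, and 3 of 8 fell. Pthlh, at 30.2%, 11.5% and 10.8%, was thus lower than either sum in each CKO lung.

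The 7 proximal airway markers summed to 44.5%, 6.08% and 9.28% of the WT mean, with CKO replicate 1 the highest CKO lung. That order was not particular to this list. CKO replicate 1 was also highest for general and distal epithelium, smooth muscle, cartilage, mesothelium, and neurons and glia. In the other lists it was not. The proximal airway sum lay between 6.45 and 47.2 CPM in CKO lungs and reached at most 138.8 CPM in WT lungs. Of the 6 tested, 2 fell, and Scgb1a1, the club cell secretoglobin, had 11 counts over all lungs. Sox2, the defining transcription factor of the proximal airway, was at 16.3, 14.4 and 13.1 CPM in WT lungs and 6.5, 0.702 and 0.879 CPM in CKO lungs (log2 -2.43 ± 0.70), which did not pass (adjusted p = 0.0731). Without CKO replicate 1 its log2 fold change was -4.18 (adjusted p = 1.2e-05). It was also called without a count filter (adjusted p = 0.00969), in the run of 17Feb16 alone (adjusted p = 0.0144) and with replicate number as a block (adjusted p = 0.0326).

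The 4 neuroendocrine markers, Pcsk1 among them, summed to 25.8%, 28.9% and 21.3% of the WT mean, and 2 of 4 fell. The other 2 did not pass, with 80 counts each over all lungs and log2 fold changes of -0.15 and -0.95. Insm1, a transcription factor of endocrine cells, went from 0.864, 0.993 and 1.24 CPM to 0.149, 0.081 and 0.119 CPM (log2 -3.11 ± 0.32, adjusted p = 0.00320). It was called with any single lung left out, on 148 counts over all lungs. The part of proximal airway and neuroendocrine RNA in the Pthlh and Pcsk1 values was not tested.

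Of the 8 mesenchyme markers, the compartment known for the receptor, 2 rose and 3 fell, and the sum was at 109%, 115% and 121% of the WT mean. Smooth muscle markers summed to 68.7%, 38.2% and 37.3%, with 3 of 6 lower, among them Acta2, smooth muscle actin, at 578.5, 584.1 and 549.3 CPM against 392, 266.8 and 249.1 CPM (log2 -0.91 ± 0.16, adjusted p = 0.0169, not called without WT replicate 1 or 2 or CKO replicate 2). Pth1r, at 89.2%, 100.5% and 94.6% of its WT mean, was above the smooth muscle sum and below the mesenchyme sum in each CKO lung. The mesenchyme sum is mostly Col1a1, a collagen, and Vim, vimentin. The median log2 fold change of the 8 genes was -0.04. Tbx4 and Foxf1, transcription factors of lung mesenchyme, were at -0.06 ± 0.06 and -0.03 ± 0.06 (SE). The 3 markers that fell were at -0.31, -0.43 and -0.60, and the 2 that rose at 0.31 and 0.68. Pth1r, at -0.08, thus stood beside a list that moved in both directions.

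Endothelial markers were at 119%, 135% and 135% of the WT mean with 4 of 5 higher, and leukocyte markers at 127%, 179% and 192% with 4 of 5 higher. Markers of neurons and glia, which include Ret, were at 80.4%, 62.4% and 58.3%, with Ret the 1 of 5 that fell. The remaining lists, for type 1 cells, pericytes and mesothelium, lay between 89.8% and 124% in every CKO lung. No gene was called among type 1 cells and pericytes. Of 6 mesothelium markers 1 rose, and 3 had log2 fold changes above 0 and 3 below 0, so their sum joins opposite directions. Red blood cell markers were at 123%, 195% and 221%, with 2 of 4 higher.

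**Figure D5:**
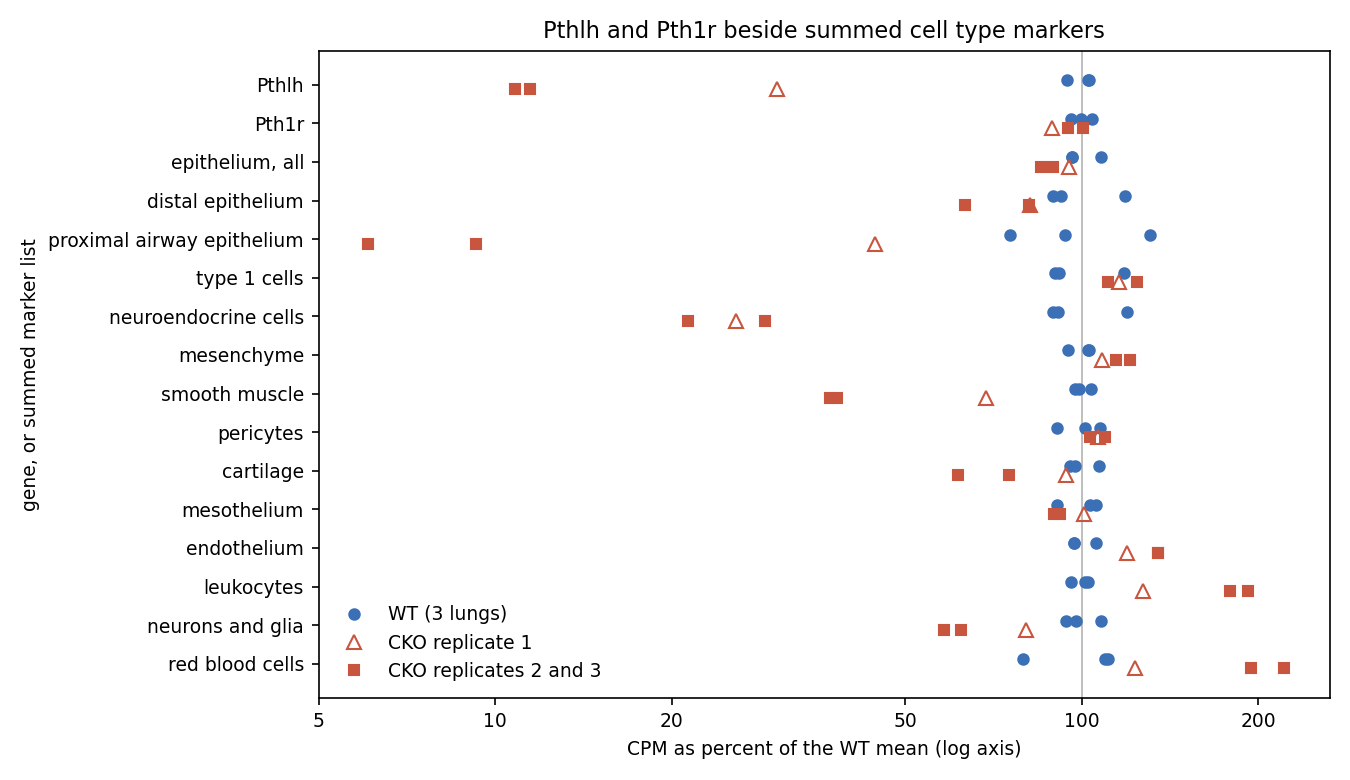
Pthlh, Pth1r and the summed CPM of each marker list in every lung, as percent of the WT mean on a log axis. Blue circles are WT lungs, the open triangle is CKO replicate 1 and red squares are CKO replicates 2 and 3. Pthlh lies with the proximal airway and neuroendocrine sums at the left of the plot, and Pth1r stays near 100.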

How the data were processed

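Trimming with cutadapt 1.13 and Trimmomatic 0.35, alignment with STAR 2.5.2b to GRCm38 and counting with HTSeq 0.6.1p2 are named in the submitters' processing notes. The authors deposited raw counts per gene for each run of each lung, which are whole numbers with no normalization; the sources used here do not say whether strand was used. Their deposited comparison table gives log2 fold changes that the authors made with edgeR, version 3.16.5 in those notes. The share of reads in no gene comes from the deposited counts of aligned reads. The count table also holds 12 columns of per-sample values that were not used.

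The 2 runs of a lung were summed, and 92 ERCC spike-ins were left out. Counts were fitted over all 6 lungs with edgeR 4.0.16 (quasi-likelihood, TMM scaling, group as factor, and filterByExpr with minimum count 10) under R 4.3.3, with Benjamini-Hochberg adjustment over 17843 genes and calls at an adjusted p under 0.05. CPM are scaled to TMM library sizes. A common biological coefficient of variation of 0.127 means that for all but low counts the lungs, not depth, set the precision. Exon lengths, positions and overlaps come from GENCODE M21. Profile distances use log2 CPM with a prior count of 2. On counts simulated at these library sizes, 35.8% of genes changed 1.5-fold, 89.6% changed 2-fold and 95.5% changed 4-fold were recovered, with 6 false calls among 17887 genes tested. The simulation gave all genes the coefficient of variation of 0.127 and all CKO lungs the same change. In the real lungs CKO replicate 1 stood between the groups. The simulated shares therefore check the fit and are not error rates of the real comparison.

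Members and gene lists were chosen with earlier results of these data known. Named genes are the members, Tgfbr2, the PTH family, up to 4 tested genes per pathway list with the smallest p and every called gene where 4 or fewer were, the 5 nearest profiles, the nearest tested neighbours and the most abundant markers. Furin, Gnas, Ihh, Ets1, Plin2, Pparg, Cdc25a, Sox2, Tbx4, Foxf1, Insm1, Scgb1a1, Ret among the markers, and Xist were named after their values were seen. One neuroendocrine marker is not reported here and was left out of its list.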

Additional observations from a re-analysis of the deposited data

How the results depend on the processing

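Pthlh had a log2 fold change between -3.15 and -2.24 with any single lung left out, and -3.15 came without CKO replicate 1. With replicates 2 and 3 only, chosen after seeing the data, it was -3.14. Pth1r stayed between -0.12 and -0.02 with single lungs left out. The scalings, the absence of a count filter, DESeq2 and each run alone moved either gene by less than the spread between lungs. With replicate number as a block, Pthlh was at -2.63, Pth1r at -0.08, and 1087 genes rose and 693 fell over the whole table. Same-numbered lungs had correlations of 0.102, 0.0887 and 0.0365 between their deviations, and CKO replicate 3 correlated best with WT replicate 2, so the numbers were not taken as pairs. Replicate 1 was female and replicates 2 and 3 male in both groups, so the block partly follows sex. The block called 22 of the 26 pathway genes called without it. Those not called were Runx2, Ihh, Msx2 and Ets1.

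Counts of calls depended on single lungs more than on any scaling. Over the whole table the number that rose was between 162 and 1713 with 1 lung left out, and the number that fell between 90 and 1185. The number that fell was 884 with no count filter, 1027 in DESeq2 and 1051 with replicates 2 and 3 only, against 549. Pathway genes that rose numbered 25 in DESeq2 and between 3 and 27 with 1 lung left out, and those that fell between 2 and 12. The cause was not tested. Of 48 other named genes with a test, 31 were called and 0 of these reversed. Furin, not called, turned to 0.0042 under total count scaling, 0.0054 in the run of 18Feb16, 0.0758 without WT replicate 3, 0.0736 without CKO replicate 1 and 0.0268 with replicates 2 and 3 only. Pparg, not called, turned to 0.0338 without CKO replicate 1. With single lungs left out Furin reached -0.068 and Pparg -0.27 at the lowest. Tbx4, not called, ranged from -0.0858 to 0.0051 and Foxf1, not called, from -0.0626 to 0.0154, and Foxf1 was at 0.047 with replicates 2 and 3 only. With 28 to 80 counts per CKO lung, depth limits Pthlh more than Pth1r.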
